A study of Mus musculus with 8 samples.

Results

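The 45 genes described here are interferon response and antigen processing genes of the mouse. They were taken by symbol from a list of the interferon-induced antiviral and antigen processing programme, chosen with earlier results of these data known. All 45 were found among the 24317 genes of the deposited count table, and all 45 passed the filter on low counts that left 13341 genes to be tested. Liver RNA of C57BL/6 mice was sequenced in 8 libraries, of which 4 belong to the normal chow group and 4 to the high-salt group, whose chow held 6% NaCl for 6 weeks. The labels name no further genotype or agent in either group. They give no age and do not tie libraries to single animals, so the tests weigh differences against the spread among these libraries, part of which may be technical. The high-salt titles start with an N that might also stand for normal, and swapped labels would reverse all directions below. The comparison asks whether the level of each gene in liver differed between the diets.

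Interferons are secreted proteins that cells release on infection. Type I interferons bind a receptor of the chains Ifnar1 and Ifnar2, which acts through JAK kinases to activate the factor ISGF3, which contains Stat2 and Irf9, and ISGF3 switches on genes that carry an interferon-stimulated response element (ISRE) in the promoter. Interferon gamma acts at the gamma-activated site (GAS) and induces the GTPases that attack intracellular parasites, and the immunoproteasome and peptide transporter that supply class I antigen presentation. Liver cells, hepatocytes and Kupffer cells among them, respond to both.

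None of the 45 genes passed the test for a diet difference, yet 42 of them had a lower fitted level in high salt. The gene with the largest difference was Phf11c, which was at 13.2 ± 5.91 CPM (SD, n = 4) in normal chow and 4.44 ± 0.348 CPM (n = 4) in high salt, and which DESeq2 called lower while edgeR and limma-voom did not. The lowest level of 30 of the 45 genes lay in high salt replicate 2, and without that library 34 of the 45 were below 0. CPM are counts in the usual unit of that name, scaled by TMM library size, and log2 fold changes are high salt over normal chow throughout.

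The promoters of a few of the genes on which these results turn are shown first, because interferon acts on many of its target genes through ISRE and GAS. Whether it does so on the genes shown was not tested. RefSeq (GRCm38.p6) gave windows of 250 bases before to 50 bases after the start for 34 of the 45 genes. The windows below run 5′ to 3′ on the strand of the gene, and capitals mark every match, on either strand, to ISRE, taken as 2 GAAA blocks with any 2 bases between them, or to GAS, written as TTCNNNGAA. Isg15 was chosen as a classical interferon target, and Gbp7, Oas3 and Phf11c because they were the only 3 members below an unadjusted p of 0.05.
Isg15, chr4:156200769-156201068, minus strand: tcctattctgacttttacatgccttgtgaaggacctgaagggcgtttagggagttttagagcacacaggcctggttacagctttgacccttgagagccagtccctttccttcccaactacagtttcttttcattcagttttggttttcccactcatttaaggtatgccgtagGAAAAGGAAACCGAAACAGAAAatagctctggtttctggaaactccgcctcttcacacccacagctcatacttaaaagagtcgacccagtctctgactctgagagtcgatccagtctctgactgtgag
Gbp7, chr3:142530086-142530385, plus strand: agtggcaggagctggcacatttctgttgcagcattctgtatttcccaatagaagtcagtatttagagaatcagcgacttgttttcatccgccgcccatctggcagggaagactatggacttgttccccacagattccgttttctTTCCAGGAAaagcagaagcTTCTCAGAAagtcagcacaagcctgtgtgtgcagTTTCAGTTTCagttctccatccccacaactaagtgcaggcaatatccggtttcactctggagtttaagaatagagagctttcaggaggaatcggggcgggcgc
Oas3, chr5:120777610-120777909, minus strand: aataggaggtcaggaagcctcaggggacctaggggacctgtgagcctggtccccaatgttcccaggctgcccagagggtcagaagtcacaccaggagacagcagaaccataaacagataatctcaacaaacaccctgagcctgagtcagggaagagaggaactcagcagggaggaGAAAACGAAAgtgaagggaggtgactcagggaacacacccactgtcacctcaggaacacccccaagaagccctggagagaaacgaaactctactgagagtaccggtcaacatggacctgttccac
Phf11c, chr14:59393463-59393762, minus strand: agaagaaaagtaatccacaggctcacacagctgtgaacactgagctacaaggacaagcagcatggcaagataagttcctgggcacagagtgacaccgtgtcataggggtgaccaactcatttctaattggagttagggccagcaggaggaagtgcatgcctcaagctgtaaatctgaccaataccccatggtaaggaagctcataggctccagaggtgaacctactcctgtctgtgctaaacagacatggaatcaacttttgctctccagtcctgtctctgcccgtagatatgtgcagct

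The Isg15 window held 3 overlapping ISRE matches, the first of them beginning at -78 from the start. The Oas3 window held 1 ISRE match at -75 and no GAS match. In the Gbp7 window 1 ISRE match lay on the opposite strand at -53, downstream of 2 GAS matches. These letters were not found in the Phf11c window. That window lies inside the deposited span of the gene, chr14:59380833-59395381 in GRCm38, so RefSeq and the deposited table place its start differently.

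Of the 34 genes with a window, 18 held an ISRE match, or 47.4% of their 38 windows beside 3.44% of all 32851 RefSeq windows. GAS matches were found for 9 of the 34 genes, in 23.7% of their windows beside 8.30% of all windows. In 1 window an ISRE and a GAS match overlapped. The median log2 fold change was -0.26 for members with an ISRE match and -0.10 for the 16 without, a description with no test. The ranges overlapped, from -0.65 to 0.08 with a match and from -1.56, for Phf11c, to 0.10 without. For GAS the medians were -0.24 with a match and -0.22 for the 25 members without. High salt replicate 2 held the lowest level of 12 of the 18 with an ISRE match and of 9 of the 16 without.

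Depth was similar in all libraries, from 16620368 counts in high salt replicate 1 to 18639685 in normal chow replicate 4, and no member had fewer than 14 counts in a library. Markers of hepatocytes summed to between 115733 and 132177 CPM in normal chow and between 122708 and 128279 CPM in high salt, as the label liver implies. Over all genes, edgeR's quasi-likelihood test with Benjamini-Hochberg adjustment called 0.300% of the 13341 genes tested, 40 in all, at an adjusted p below 0.05. The common biological coefficient of variation was 0.147.

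Among the 45 members edgeR called 0, and at an unadjusted p below 0.05 it put 3 lower and 0 higher. Of all genes tested, 5.60% were lower and 5.33% higher at the same threshold. limma-voom also called 0 members, with 3 below an unadjusted p of 0.05. DESeq2 called 1, Phf11c, with 4 below an unadjusted p of 0.05, beside 1.12% of all its genes called lower. The share of all genes below that unadjusted p was not worked out for limma-voom or DESeq2. The authors' deposited table also has 1 member below an adjusted p of 0.05 and lower in high salt, beside 0.880% of all its genes with an adjusted p, and that member is again Phf11c.

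By sign alone, 42 of the 45 members were below 0 and 3 above, where 48.7% of all genes tested were below 0. The members' median log2 fold change was -0.22 with a range from -1.56 to 0.10, beside a median of 0.006 over all genes tested. Members vary together between libraries, so this count is not 42 separate observations. The members were also chosen with earlier results of these data known, so the count is a description and not a test. The libraries of the diets were fully separated, every high-salt library below every normal-chow one, for 1 member, Phf11c, beside 3.37% of all genes tested. In bulk liver, fewer cells of a type and less RNA per cell cannot be told apart. The 95% interval of the log2 fold change lay inside -1 to 1 for 39 of the 45 members, and inside a 1.5-fold difference in either direction for 21. Of all 13341 genes tested, 11814 had an interval inside -1 to 1 and 8950 inside a 1.5-fold difference.

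**Figure D1:**
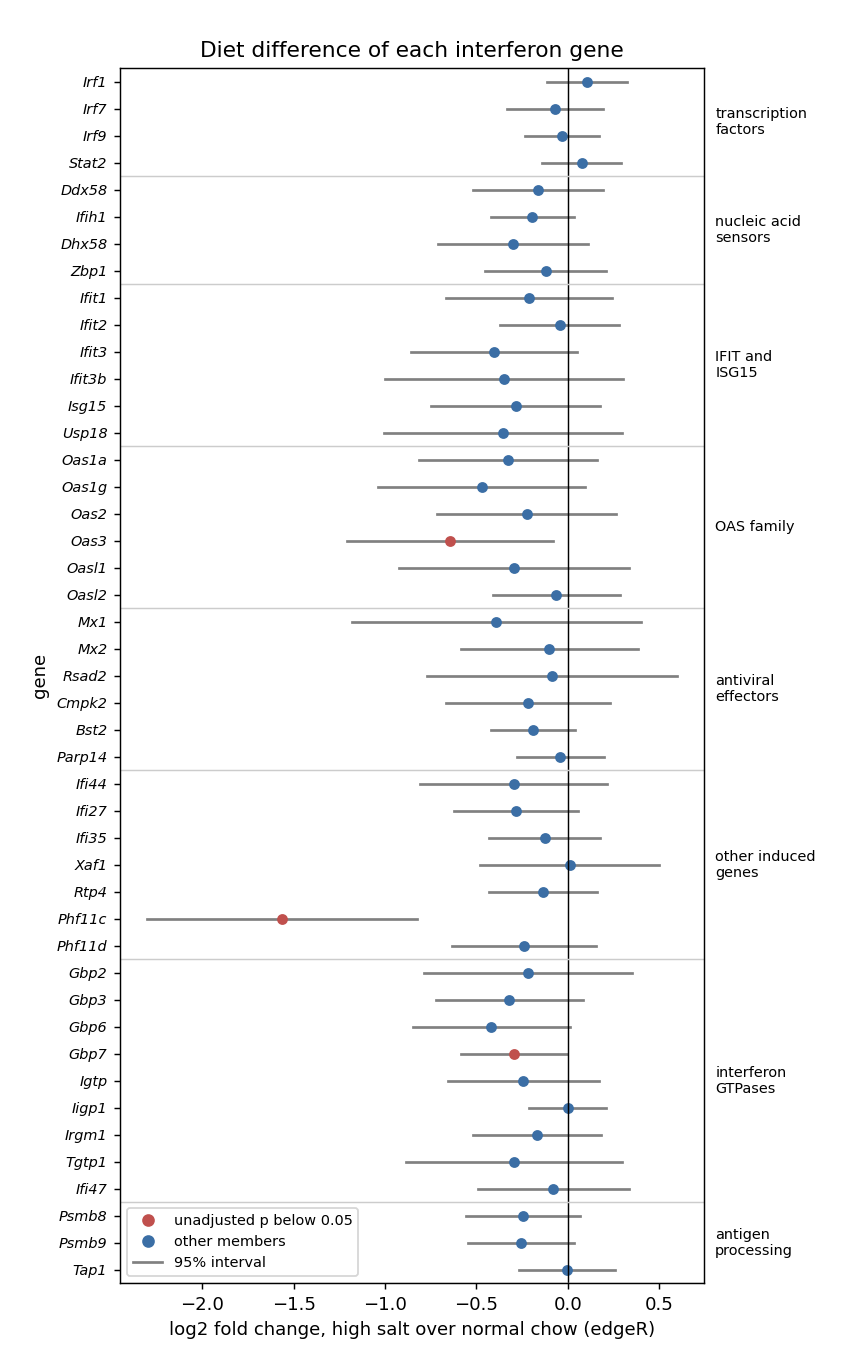
Log2 fold change of each of the 45 genes, high salt over normal chow, from edgeR, with its 95% interval as a line. The points run from -1.56 for Phf11c to 0.10 for Irf1, and 42 of 45 lie left of 0 while most intervals cross it.

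The levels of the genes spanned a wide range when divided by exon length. Bst2, which codes for tetherin, a membrane protein that holds budding virus at the cell surface, was highest at 163 CPM per kilobase over all libraries. Iigp1, an interferon-induced GTPase of the IRG family that acts on parasite vacuoles, followed at 89.8 CPM per kilobase. Ifi27, a small interferon-induced membrane protein, was next at 45.2 CPM per kilobase. These 3 did not overlap with each other or with the next gene, Igtp at 23.2 CPM per kilobase, in any library. From Igtp on, each gene overlapped with the next in the order, so 41 of the 44 neighbouring pairs were not separated by the spread between libraries. Oas3 at 0.32 CPM per kilobase and Mx1 at 0.36 were the lowest. The lengths cover all annotated exons of a gene, so the order also depends on them. Before division by length Iigp1, at 523 CPM over all libraries, lay above Bst2, at 147 CPM.

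**Figure D2:**
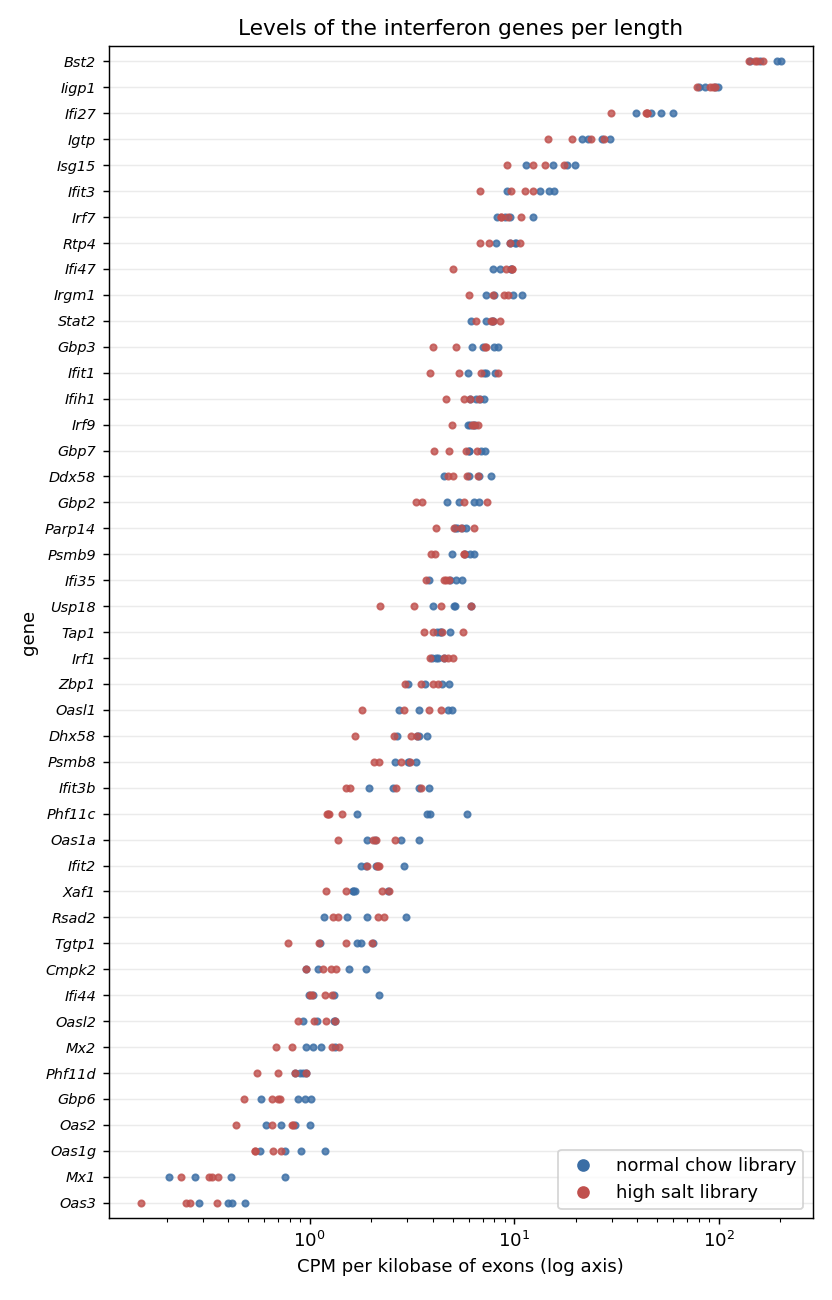
CPM per kilobase of exons of the 45 genes on a log axis, ordered by the mean of 8 libraries, with 1 point per library. Bst2, Iigp1 and Ifi27 stand apart at the top at 163, 89.8 and 45.2 CPM per kilobase, and further down neighbouring genes overlap.

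Transcription factors of the pathway had a median difference close to 0. The 4 measured were Irf1 and Irf7, which drive induced genes, and Irf9 and Stat2, which belong to ISGF3. Of these, 2 lay below 0 and 2 above, with a median log2 fold change of 0.02 and none at an unadjusted p below 0.05. Irf1 was at 16.9, 15.8, 18 and 16.6 CPM in normal chow replicates 1 to 4, and at 15.4, 18.8, 18.1 and 19.9 CPM in high salt replicates 1 to 4; all values by library below are in this order. The diets overlapped, and the log2 fold change was 0.10 ± 0.10 (SE, edgeR adjusted p 0.776). Stat2 was at 46.1, 46.5, 43.0 and 36.6 CPM in normal chow and 46.9, 38.7, 45.4 and 50.4 CPM in high salt. It overlapped too, at 0.08 ± 0.10. All 4 factors had a 95% interval inside a 1.5-fold difference in either direction.

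Sensors of nucleic acid lay slightly lower without passing the test. All 4 were below 0, with a median log2 fold change of -0.18. Ifih1, the MDA5 sensor of long double-stranded RNA, was at 55.3, 49.4, 58.1 and 53.4 CPM in normal chow and 46.3, 37.8, 55.2 and 49.8 CPM in high salt. High salt replicate 2 was the lowest, and replicates 3 and 4 lay among the normal chow values. The log2 fold change was -0.19 ± 0.11 (edgeR adjusted p 0.543). Dhx58, which codes for LGP2, a helicase that tunes the other RNA sensors, was at 11.0, 12.2, 11.2 and 8.78 CPM in normal chow and 8.42, 5.47, 10.9 and 10.2 CPM in high salt. Its log2 fold change was -0.30 ± 0.19 (edgeR adjusted p 0.613), with high salt replicate 2 again the lowest. Ddx58, the RIG-I sensor of 5′-triphosphate RNA, and Zbp1, a sensor of Z-form nucleic acid, had log2 fold changes of -0.16 and -0.12.

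The IFIT genes and the ISG15 system formed the group of lowest median. IFIT proteins bind foreign RNA and block its translation, Isg15 is a ubiquitin-like modifier, and Usp18 removes it and damps receptor signalling. All 6 were below 0, with a median log2 fold change of -0.32 and edgeR adjusted p of 0.519 or more. Ifit3 was at 25.9, 23.3, 27.3 and 16.0 CPM in normal chow and 16.9, 11.9, 21.5 and 19.7 CPM in high salt. Normal chow replicate 4 lay within the high-salt range, and the log2 fold change was -0.40 ± 0.20 (edgeR adjusted p 0.519). Isg15, the gene with 3 ISRE matches above, was at 15.1, 11.7, 13.7 and 8.62 CPM in normal chow and 9.30, 6.95, 13.3 and 10.7 CPM in high salt. The groups overlapped, at -0.29 ± 0.21 (edgeR adjusted p 0.686). Ifit3b and Usp18 were each at -0.35 and Ifit1 at -0.21, while Ifit2 was at -0.05. Ifit3 and Ifit3b are near copies on chromosome 19: 51.2% of the 50-base stretches of Ifit3 also occur in another gene, mainly Ifit3b, so the split of reads between them is uncertain.

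In the OAS family, whose active enzymes answer double-stranded RNA by making the 2′-5′ oligoadenylates that activate RNase L, Oas3 had the lowest log2 fold change. All 6 members were below 0, with a median log2 fold change of -0.31. Oas3 was at 2.03, 2.95, 3.40 and 2.82 CPM in normal chow and 1.84, 1.75, 1.06 and 2.48 CPM in high salt. Only normal chow replicate 1 and high salt replicate 4 crossed. The log2 fold change was -0.65 ± 0.26 with an unadjusted p of 0.0274 and an adjusted p of 0.385 (edgeR). Oas1g was at 2.78, 1.33, 2.12 and 1.77 CPM in normal chow and 1.54, 1.26, 1.70 and 1.27 CPM in high salt, at -0.47 ± 0.26 (edgeR adjusted p 0.556). Of the stretches of Oas1a, 57.6% are shared, mainly with Oas1g, so levels of that pair are uncertain. Oasl1, which in the mouse restrains Irf7 translation, was at 8.92, 12.3, 12.9 and 7.13 CPM in normal chow and 7.53, 4.71, 11.4 and 10.03 CPM in high salt. It overlapped widely, at -0.30 ± 0.28. Oas1a, Oas2 and Oasl2 were at -0.33, -0.22 and -0.06.

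Among the other antiviral effectors the fold changes were small beside their spread. All 6 were below 0, with a median log2 fold change of -0.15. Bst2 was at 181, 144, 174 and 129 CPM in normal chow and 135, 138, 148 and 128 CPM in high salt. Normal chow replicates 1 and 3 were above all high-salt values and the others lay among them, with a log2 fold change of -0.19 ± 0.11 (edgeR adjusted p 0.557). Mx1, a dynamin-like GTPase that blocks influenza virus and is defective in most laboratory strains, was at 1.56, 1.04, 2.85 and 0.773 CPM in normal chow and 0.889, 1.26, 1.35 and 1.21 CPM in high salt. Its fitted difference of -0.39 ± 0.37 rests on normal chow replicate 3, without which it was 0.07. Mx2 is annotated as a polymorphic pseudogene, and was at -0.10. Rsad2 (viperin, which makes a chain-terminating nucleotide), its neighbour Cmpk2 (a mitochondrial nucleotide kinase) and Parp14 (an ADP-ribosyltransferase) were at -0.09, -0.22 and -0.04.

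Phf11c had the largest fitted difference of the 45 genes. It codes for a PHD finger protein, one of a small family of similar genes on chromosome 14. It was at 5.91, 13.4, 20.4 and 13.0 CPM in normal chow and 4.27, 4.32, 4.22 and 4.96 CPM in high salt. The high-salt libraries lay close together below the lowest normal chow library, replicate 1, which itself was far below the other 3. The log2 fold change was -1.56 ± 0.32, with a 95% interval from -2.30 to -0.83 and an adjusted p of 0.126 in edgeR. DESeq2 gave an adjusted p of 1.79e-05 and limma-voom 0.259. The authors' deposited table gives a log2 fold change of -1.57, equal to that of DESeq2 here, and an adjusted p of 2.11e-05. Without normal chow replicate 1 the log2 fold change was -1.81 and edgeR's adjusted p was 0.000257. That library was the normal chow one nearest to high salt, so leaving it out had to widen the difference. In the other leave-one-out fits edgeR's adjusted p ran from 0.128, without normal chow replicate 3, to 0.328, without high salt replicate 2.

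Relatives of Phf11c had smaller fitted differences. Phf11d, the other member of the family here, was at -0.24, with 4.09 ± 0.211 CPM in normal chow against 3.45 ± 0.790 CPM in high salt (n = 4 each). Phf11b, which is no member, was at 1.94 ± 0.136 and 2.49 ± 0.603 CPM, with a log2 fold change of 0.36 ± 0.22 (edgeR adjusted p 0.597). Phf11a was at 0.439 and 0.529 CPM and was not tested. Of the 50-base stretches of Phf11c, 11.8% occur in another gene, 7.77% in Phf11d. Whether the differences between these genes are larger than their errors was not tested.

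**Figure D3:**
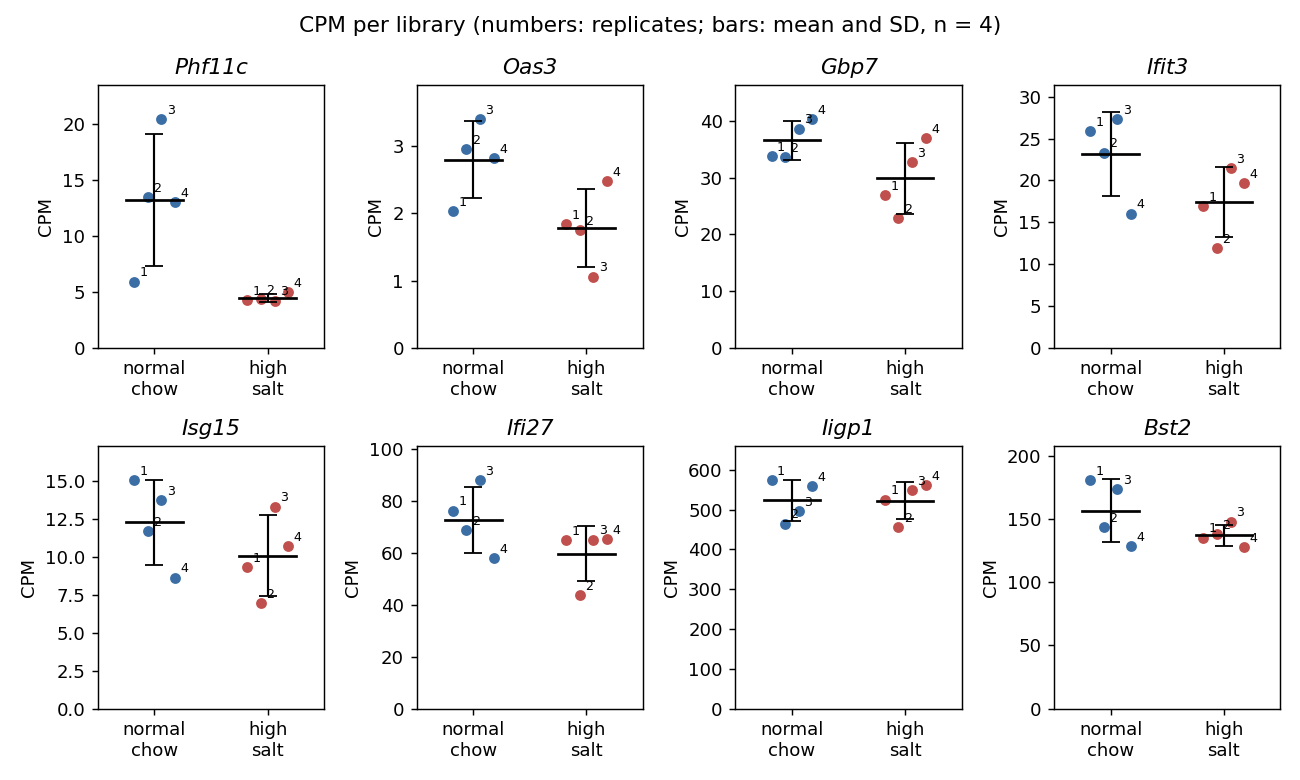
CPM in each library for 8 of the genes, with the replicate number beside each point and bars for the mean and SD (n = 4). Phf11c separates the diets, with high salt between 4.22 and 4.96 CPM, and the other 7 genes overlap.

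None of the other induced genes of that group had an unadjusted p below 0.05. Ifi27 was at 76.2, 68.8, 88.1 and 58.1 CPM in normal chow and 65.0, 43.6, 65.2 and 65.4 CPM in high salt. Apart from replicate 2, the high-salt libraries agreed closely and lay inside the normal chow range, and the log2 fold change was -0.28 ± 0.15 (edgeR adjusted p 0.549). Ifi44 was at -0.30, and Ifi35 and Rtp4 were at -0.13 and -0.14. Xaf1, a promoter of cell death, was at 0.01.

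Interferon-induced GTPases, which coat and disrupt the vacuoles of intracellular pathogens, included Gbp7, which with Oas3 and Phf11c had an unadjusted p below 0.05. All 9 were below 0, with a median log2 fold change of -0.24. Gbp7 was at 33.8, 33.6, 38.7 and 40.3 CPM in normal chow and 27.0, 22.9, 32.7 and 36.9 CPM in high salt. High salt replicates 1 to 3 lay below all normal chow libraries and replicate 4 among them. Its log2 fold change was -0.29 ± 0.13, with an unadjusted p of 0.0476 and an adjusted p of 0.451 (edgeR). Gbp6 was at 6.03, 5.21, 5.64 and 3.42 CPM in normal chow and 4.27, 2.85, 4.16 and 3.91 CPM in high salt, at -0.42 ± 0.20 (edgeR adjusted p 0.467). Its level is uncertain, since 70.7% of its stretches are shared, mainly with Gm43302. Iigp1 was at 574, 464, 496 and 558 CPM in normal chow and 525, 455, 549 and 561 CPM in high salt. The diets matched closely in mean, at 523 ± 51.7 and 523 ± 47.3 CPM, and the 95% interval of the log2 fold change ran from -0.21 to 0.21. Gbp3, Tgtp1, Igtp, Gbp2, Irgm1 and Ifi47 ran from -0.32 to -0.08. Tgtp1 shares 81.2% of its stretches, mainly with Tgtp2, which was at 4.94 ± 0.980 CPM in normal chow against 4.93 ± 1.44 CPM in high salt, so their split is uncertain as well.

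Of the antigen processing genes, both immunoproteasome subunits had fitted log2 fold changes that round to the same value below 0, and the transporter was near 0. Psmb8 and Psmb9 replace constitutive catalytic subunits and alter which peptides the proteasome cuts, and Tap1 carries peptides into the endoplasmic reticulum for class I molecules. Psmb9 was at 18.2, 21.1, 23.2 and 22.2 CPM in normal chow and 15.1, 14.3, 20.7 and 20.9 CPM in high salt, with a log2 fold change of -0.25 ± 0.13 (edgeR adjusted p 0.526). Psmb8 was at 10.3, 8.80, 10.3 and 11.2 CPM in normal chow and 7.41, 6.95, 9.44 and 10.4 CPM in high salt, also at -0.25 ± 0.14. In both genes high salt replicates 1 and 2 were the lowest and replicates 3 and 4 lay among the normal chow values. Tap1 was at 23.8, 23, 24.0 and 26.5 CPM in normal chow and 21.9, 19.9, 24.3 and 30.9 CPM in high salt, with a 95% interval from -0.27 to 0.26. Psmb9 and Tap1 overlap on opposite strands at chr17:34181988-34187764 and chr17:34187553-34197225, and whether the counting used strand is not stated in the sources used here, so some of their reads cannot be told apart. The summed level per kilobase of Psmb8, Psmb9 and Psmb10 was divided by that of the constitutive subunits Psmb5, Psmb6 and Psmb7. The ratio was 0.311, 0.330, 0.329 and 0.361 in normal chow and 0.235, 0.295, 0.310 and 0.371 in high salt, so the groups overlapped. Most of its numerator is Psmb10, which is no member, at 24.7 CPM per kilobase beside 2.77 for Psmb8 and 5.32 for Psmb9. The log2 fold change of Psmb10 was -0.17 ± 0.11.

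Differences between libraries of 1 diet were larger for these genes than for most. The members' median within-diet SD of log2 CPM was 0.25 with normal chow and 0.29 with high salt, beside 0.18 and 0.17 over all genes tested. The SD was larger in high salt for 30 of the 45 members and for 46.4% of all genes tested. From the lowest to the highest library the median member differed 2.01-fold, and the median of all genes tested 1.51-fold.

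High salt replicate 2 was the low end for most of them. It held the lowest CPM of 30 of the 45 members, or 66.7%, where it held the lowest of 16.9% of all genes tested. The median log2 fold change was -0.23 for these 30 members and -0.22 for the others. Within high salt alone it was the lowest for 35 members, beside 29.6% of all genes. Normal chow replicate 4 was the lowest of its diet for 27 members, beside 23.9% of all genes. The highest level lay in normal chow replicate 3 for 14 members, in normal chow replicate 1 for 12 and in high salt replicate 4 for 9. Those libraries held the highest level of 12.2%, 14.2% and 9.38% of all genes tested. High salt replicate 2 held the highest level of 0 members and of 16.4% of all genes tested.

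The same order shows in the median deviation of the members from their own means. It was 0.16, 0.04, 0.24 and -0.11 on the log2 scale in normal chow and -0.18, -0.40, 0.06 and 0.12 in high salt, while the median of all genes tested stayed at or below 0.0081 in every library. High salt replicates 3 and 4 thus lay above normal chow replicates 2 and 4. Without Iigp1, which alone makes up a large share of the sum, the members summed to 1037, 980.2, 1097 and 871 CPM in normal chow and 849.7, 713, 963 and 982 CPM in high salt.

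**Figure D4:**
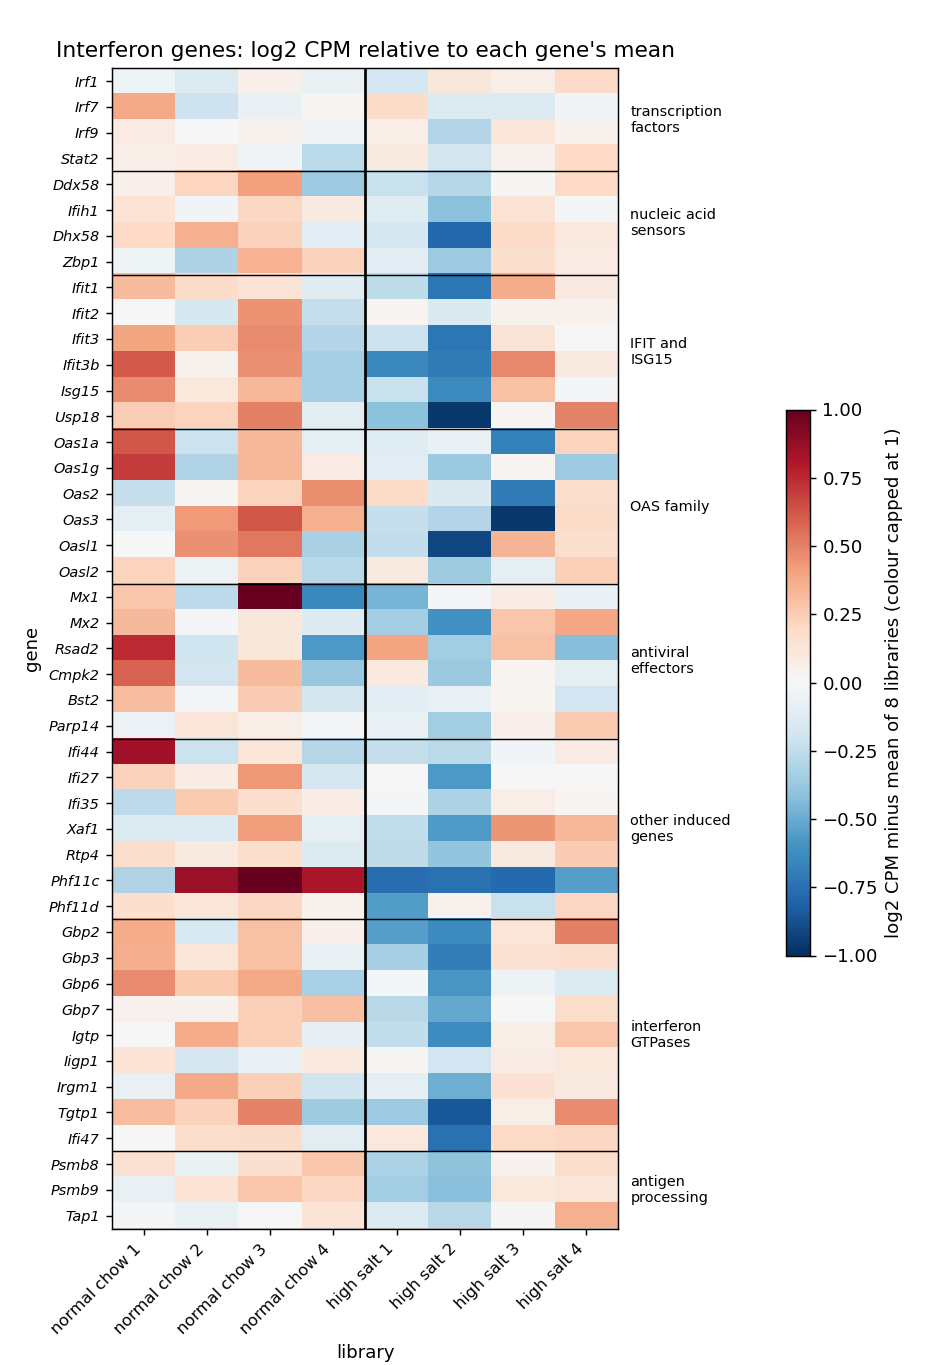
Log2 CPM of each gene in each library minus the gene's mean over the 8 libraries, by role, with the colour capped at 1. High salt 2 is blue in 43 of 45 rows, while high salt 3 and 4 are below the gene's mean in 10 rows each.

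**Figure D5:**
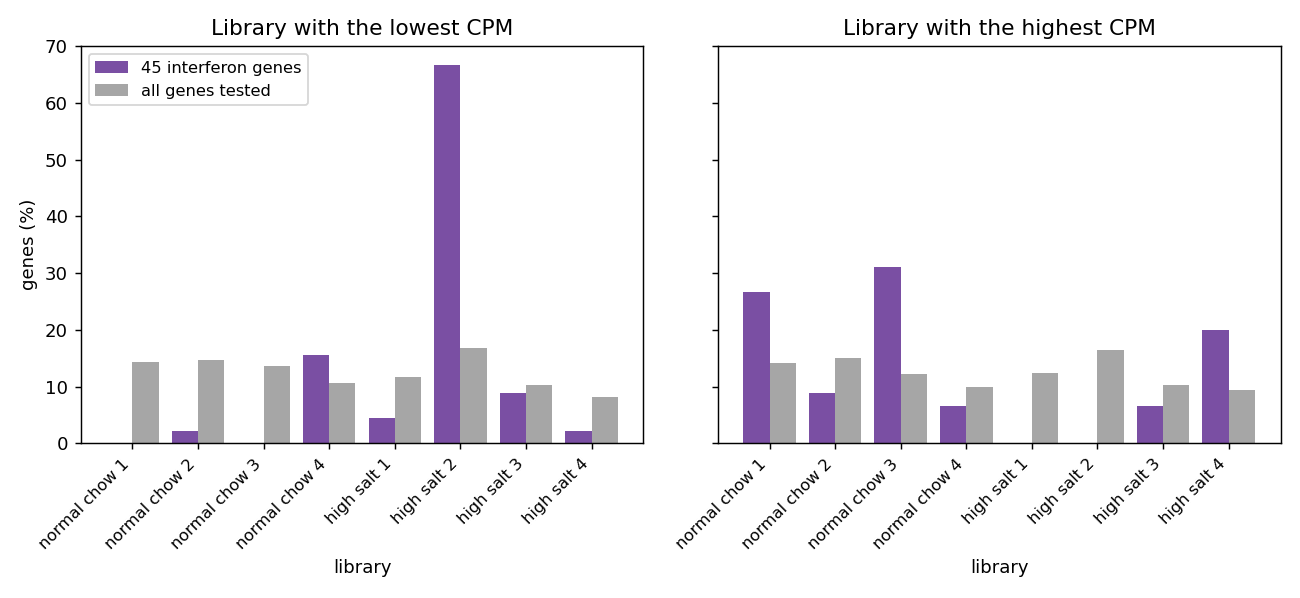
Share of genes (%) whose lowest and highest CPM lies in each library, for the 45 genes and for all genes tested. High salt 2 holds the lowest level of 66.7% of the 45 genes and 16.9% of all genes.

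Without high salt replicate 2, 34 of the 45 members were below 0 and their median log2 fold change was -0.11. Leaving out normal chow replicate 1 as well left 29 below 0, with a median of -0.10, a setting chosen after seeing the data. Leaving out 1 library at a time gave medians from -0.32, without high salt replicate 4, to -0.11, without replicate 2. With counts scaled by library total alone, 37 members were below 0 and the median was -0.16, and there the median of all genes tested itself was 0.07.

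Markers of other cells differed between these libraries too. The B and plasma cell markers, 8 of 8 measured, were all highest in high salt replicate 2 and summed to 22.4, 39.8, 16.3 and 16.2 CPM in normal chow and 18.7, 201, 61.1 and 67.9 CPM in high salt. High salt replicates 3 and 4 thus also lay above every normal chow library. Monocyte and neutrophil markers summed to between 113 and 154 CPM in normal chow and between 132 and 206 CPM in high salt, again highest in replicate 2. That sum is nearly all Lyz2, which macrophages also express, at 148 CPM in normal chow replicate 1 and 196 CPM in high salt replicate 2, and no other marker of the list was above 4.00 CPM in a library. Markers of Kupffer cells summed to between 512 and 543 CPM in normal chow and between 449.7 and 578 CPM in high salt, and those of sinusoidal endothelium to between 244 and 286 CPM and between 228 and 261 CPM. T cell markers ran from 3.37 to 8.69 CPM in normal chow and from 3.32 to 9.36 CPM in high salt, NK cell markers from 2.95 to 6.74 and from 2.35 to 3.62 CPM, and plasmacytoid dendritic cell markers from 1.60 to 2.32 and from 1.05 to 4.98 CPM. The part of these cells in the members' levels was not tested.

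Other genes of the pathway, from lists drawn up for this comparison, contained no gene called by edgeR, DESeq2 or limma-voom. Of 10 interferon ligand genes on the list 2 could be read, Ifng and Ifnk, each with 3 counts over all libraries, too few to test. Receptor and JAK-STAT genes were flat in the median, at 0.01 over 10 genes. Both chains of the type I receptor had an unadjusted p below 0.05 and lay higher in high salt, the only 2 of the 10 genes below that threshold, where 5.33% of all genes tested were higher: Ifnar1 was at 30.8 ± 2.67 CPM in normal chow against 36.3 ± 3.64 CPM in high salt, at a log2 fold change of 0.24 ± 0.09 (edgeR adjusted p 0.378). Ifnar2 was at 30.8 ± 2.62 and 35.2 ± 0.842 CPM, at 0.19 ± 0.08 (edgeR adjusted p 0.424). Jak1 and Stat3, the most abundant of that list, were at 0.02 and -0.13. The 6 feedback regulators had a median of 0.03, with Irf2, a repressor of induced genes, at -0.11, and the phosphatases Ptpn6 and Ptpn11 at 0.09 and 0.03.

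Of 16 genes that sense infection upstream of interferon 1 was lower at an unadjusted p below 0.05 and none higher, a share near the 5.60% of all genes tested. It was Ticam1, the TRIF adaptor of Toll-like receptors 3 and 4, at 15.9, 13.4, 15.6 and 15.5 CPM in normal chow and 9.90, 11.4, 10.9 and 13.3 CPM in high salt. Every high-salt library lay below every normal chow library, as for 3.37% of all genes tested, and the log2 fold change was -0.40 ± 0.11 (edgeR adjusted p 0.190). Irf8, a factor of myeloid cells, was at 0.26, and Trim25 and Mavs, which relay the RIG-I signal, at -0.11 and -0.07. The list's median was -0.05.

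Over a further 42 interferon-stimulated genes the median log2 fold change was -0.10 and 32 lay below 0. An unadjusted p below 0.05 was reached by 6, all of them lower, beside 5.60% of all genes tested that were lower at that threshold. Ly6e, which restricts coronavirus entry, was at 304, 213, 259 and 255 CPM in normal chow and 209, 190.2, 202 and 226 CPM in high salt, with a log2 fold change of -0.32 ± 0.11 (edgeR adjusted p 0.275). Apol9a was at 59.2 ± 5.90 CPM in normal chow against 46.2 ± 8.41 CPM in high salt, at -0.36 ± 0.12 (edgeR adjusted p 0.304). The others, named after their values were seen, were Ifitm3, Pnpt1, Apol9b and Epsti1. Lgals9, the most abundant, was at -0.10. High salt replicate 2 was the lowest library for 21 of the 42. The further 9 GTPases had a median of -0.12, with Gbp10 at -0.52 ± 0.33, Gbp5 at 0.29 ± 0.20 and Irgm2 at 0.04 ± 0.12.

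Class I and class II antigen presentation genes had medians on opposite sides of 0, a difference that was not tested. Of 18 class I genes 3 were lower and 1 higher at an unadjusted p below 0.05, beside 5.60% and 5.33% of all genes tested, and the median was -0.06. The lower genes are chaperones of the endoplasmic reticulum that fold class I and many other proteins: Calr at -0.33 ± 0.12, Pdia3 at -0.26 ± 0.11 and Canx at -0.20. The higher one was Nlrc5, the transactivator of class I genes, at 0.29 (edgeR adjusted p 0.410). Of the class I chains themselves, the most abundant was B2m, at 2080 ± 190.4 CPM in normal chow against 1999 ± 288 CPM in high salt. H2-K1 followed at 1331 ± 49.7 and 1245 ± 135 CPM, and their log2 fold changes were -0.06 and -0.10. H2-D1 and H2-T23 were each at -0.03, while H2-Q4, H2-Q6 and H2-Q7 were at 0.09, 0.09 and 0.03. High salt replicate 2 was the lowest library for 12 of the 18.

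Class II genes, which antigen-presenting cells express, lay the other way: 7 of 8 were above 0, with a median of 0.32, and 3 of them reached an unadjusted p below 0.05, where 5.33% of all genes tested were higher at that threshold. H2-Ab1 was at 37.5, 34.3, 28.9 and 28.4 CPM in normal chow and 33.4, 53.7, 35.5 and 42.3 CPM in high salt, at 0.35 ± 0.15 (edgeR adjusted p 0.419). H2-Aa was at 0.33 ± 0.14, H2-Eb1 at 0.34 and the invariant chain Cd74 at 0.15 ± 0.13. High salt replicate 2 was the highest library for 8 of the 9 class II genes in the table, which summed there to 279 CPM, while it was the lowest for most members. The 3 constitutive proteasome subunits had a median of -0.03, with Psmb6 at 99.8 ± 4.54 and 98.0 ± 2.98 CPM, Psmb7 at 0.03 and Psmb5 at -0.18.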

How the data were processed

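Liver RNA of 8 libraries, 4 per diet, was analysed from 1 table of raw read counts per gene deposited by the authors, per the file headers. Per the submitters' processing notes the build was GRCm38 and the tools included HTSeq 0.6.0, StringTie 1.3.2d and HISAT2 2.1.0, and the labels' protocols name a TruSeq RNA kit and Trizol. The authors' deposited table also gives, for each gene, p-values before and after adjustment and a fold ratio with its log2, made by a tool not given in the sources used here. The annotation release, strand setting and treatment of multiply matching reads are likewise not given. Symbols turned into dates were restored in 23 rows, and 1 line emptied in the copy used was not analysed here.

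From the counts, edgeR 4.0.16 (R 4.3.3) fitted diet alone over all 8 libraries with TMM factors, filterByExpr and a robust quasi-likelihood test, two-sided, with Benjamini-Hochberg adjustment over 13341 genes and a call at an adjusted p below 0.05. Standard errors came from the fold change and F statistic. log2 CPM used a prior count of 2. Alternatives were DESeq2 1.42.0, limma-voom (limma 3.58.1), other scalings and filters, a replicate block, and leaving out libraries. Exon lengths, overlaps and shared 50-base stretches came from GENCODE M21, where 24275 gene IDs were found. The 45 members and all gene lists were chosen with earlier results of these data known. Named genes were, in each of 8 role groups, the 2 members of smallest p and the 1 of highest CPM, and in each other list the called genes or else the 2 of smallest p, and the 2 of highest CPM.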

Additional observations from a re-analysis of the deposited data

Results flagged for a closer look

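In 7 of 144 sets of 4 libraries (a gene in 1 diet) the highest or lowest library stood apart from the others by Dixon's ratio, and chance gives about 1 in 20. Of these, 3 were the lowest level in high salt replicate 2. Ifi27 was at 43.6 CPM there and at 65.0 to 65.4 CPM in the other high-salt libraries. Ifi47, a GTPase of the IRG family, was at 12.5 CPM beside 22.6 to 24.3 CPM. Ifit2 was at 7.50 CPM beside 8.42 to 8.55 CPM.

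Normal chow replicate 3 was the high value for 2 genes. Xaf1 was at 11.3 CPM beside 7.64 to 7.84 CPM in the rest of its diet, and Lgals9 was at 509 CPM beside 403 to 414 CPM. Phf11c was at 4.96 CPM in high salt replicate 4 beside 4.22 to 4.32 CPM, a small gap in a narrow group. Ticam1 was at 13.4 CPM in normal chow replicate 2 beside 15.5 to 15.9 CPM.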

How the results depend on the processing

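Of the named members' log2 fold changes under the alternatives, 307 of 323 kept their direction and side of the threshold, 3 became called and 13 changed sign. The 3 were all Phf11c, called under DESeq2, without normal chow replicate 1, and without normal chow 1 and high salt 2 together, so that the number of members called was 1 in each of those settings, 0 to 1 over the leave-one-out fits, and 0 elsewhere. Iigp1 changed sign to 0.057 with total counts, 0.0035 with upper-quartile scaling and 0.10 without the pair of libraries, and ran from -0.062 to 0.053 in leave-one-out fits. Tap1 went to 0.055, 0.0020 and 0.064 under the same settings and ran from -0.15 to 0.074 in leave-one-out fits. Mx1 ran from -0.62 to 0.067, the latter without normal chow replicate 3. Why was not tested. The members' median stayed negative in all settings, from -0.32 to -0.10. No gene of the other pathway lists was called in any setting, and the cell type markers were not run under the alternatives. Same-numbered libraries of the diets had deviations correlated at -0.15, -0.20, 0.09 and 0.01. The largest correlation was 0.34, between normal chow replicate 1 and high salt replicate 2. These values cannot show whether replicate numbers pair the libraries, since a pairing with a small shared effect could give them too. The fit with the replicate block gave 0 called members, 43 below 0 and a median of -0.24, and called 11 genes in all, beside 40 without it. Over all genes, DESeq2 called 238, limma-voom 17, and the fit without a filter 220. Leaving out 1 library gave 4 to 57 calls. With 4 libraries per diet and counts as low as 14, small differences of the rarest members were beyond reach, and shared reads limit the IFIT, OAS1, Tgtp and Gbp6 genes.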
